A study of Mus musculus with 8 samples.

Results

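The mitochondrial chromosome of the mouse carries 37 genes, and the counts of these genes were followed across the jejunal mucosa of mice with and without the free fatty acid receptor FFA2 in adipocytes. Members were all identifiers whose mouse symbol begins with mt-, which gave 13 mRNA genes, 2 rRNA genes and 22 tRNA genes among 56980 gene identifiers. RNA sequencing was performed on mucosal scrapings of the jejunum from male mice, with 4 libraries of FFA2 fl/fl floxed controls and 4 of Adipoq-F2-KO mice. Both groups carried floxed Ffar2 alleles, were littermates housed together from birth, moved at 12 weeks of age from chow to a Western diet with 10% fructooligosaccharides, and were collected after 2 weeks of that diet in thermoneutral housing. They differed in an adiponectin-Cre transgene, which is active in adipocytes, so the cells of the scraped mucosa were for the most part not those in which the receptor was deleted.

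Both strands of mitochondrial DNA are copied into long transcripts that run through many genes, and the tRNAs that lie between the others mark where these transcripts are cut. The mRNAs encode core subunits of the respiratory chain and of ATP synthase, and the rRNAs and tRNAs serve the ribosome of the organelle. Most of the mRNAs carry short poly(A) tails and the rRNAs carry a few added A bases, whereas mature tRNAs end in CCA. These libraries were made from poly(A)-selected RNA with a strand-specific kit and read from 1 end over 75 bases. Capture by this selection can differ between genes, mt-Nd6 and the rRNAs included, and its part in their counts was not tested. In bulk tissue, fewer cells of a type and less RNA per cell cannot be told apart.

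Library totals ranged from 6007654 to 21712776 counts. The 3 libraries under 10000000 counts were FFA2 fl/fl 3 and Adipoq-F2-KO 3 and 4. Ffar2, the targeted gene, had 12, 18, 2 and 11 counts in FFA2 fl/fl and 13, 12, 6 and 3 in Adipoq-F2-KO, too few in this tissue to check the deletion. Enterocytes absorb nutrients at the villus surface, and the summed normalized counts of 12 enterocyte markers lay between 944053 and 1070604 in all 8 libraries. The sum of 12 smooth muscle markers was 33624 in FFA2 fl/fl 3 and between 3823 and 13719 in the other 7, and Fabp4, an adipocyte marker, stood at 243 normalized counts in that library, at 108 and 94.0 in Adipoq-F2-KO 3 and 4, and at 12.6 or less in the other 5. The sum of 5 adipocyte markers was 1477 to 1710 in FFA2 fl/fl and 954 to 1369 in Adipoq-F2-KO. Most of it came from Cidec, a lipid droplet protein, at 1242 to 1706 and 942 to 1179. Cidec did not follow the other markers. It was highest in FFA2 fl/fl 4, where Adipoq stood at 0 and Fabp4 at 0.774, so the sum cannot be read as adipocyte content. Adipoq, Plin1, Lep and Fabp4 overlapped between the groups. The part of these differences in the values that follow was not tested.

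A run of neighbouring mRNA genes had almost no counts in any library. mt-Co2 (a subunit of cytochrome c oxidase, complex IV), mt-Atp6 (a subunit of ATP synthase, complex V) and mt-Nd3 (a subunit of NADH dehydrogenase, complex I) each had 1 count over all 8 libraries. mt-Atp8, mt-Co3 and mt-Nd4l, members of the same complexes, had 0. The other 7 mRNA genes each had at least 13303 counts in every library. A count of 0 allows up to 3 counts in a library, which covers counting error only.

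These 6 genes lie between mt-Co1 and mt-Nd4, and this stretch has a copy in the nucleus. On chromosome 1 of assembly GRCm38, the unprocessed pseudogenes Gm29216, Gm28661, Gm10925, Gm28437, Gm28438, Gm10222 and Gm28439 match the end of mt-Co1, then mt-Co2, mt-Atp6, mt-Co3, mt-Nd3, mt-Nd4l and the start of mt-Nd4. They follow the mitochondrial order on the minus strand from chr1:24611535-24616188, which mirrors chrM:6390-11042. The spans are 4654 and 4653 bases. Gm28661 is identical to mt-Co2 over 681 bases, Gm28437 to mt-Co3 over 783 bases and Gm28439 to mt-Nd4 over 876 bases. The match of Gm28438 to mt-Nd3 over 345 bases has 1 difference. mt-Atp8 has no near-identical transcript in the annotation, but all of it except its end, which overlaps mt-Atp6, lies in a gap of 233 bases between the matches of mt-Co2 and mt-Atp6, and the corresponding gap on chromosome 1 (chr1:24614652-24614884) has the same length and holds no annotated gene.

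The sequences below show what a 75-base read from mt-Co2 or mt-Nd3 can meet in the nuclear genome, with bases of a copy that differ from the mitochondrial gene in capitals. The mt-Co2 stretch lies at chrM:7229-7303, that of Gm28661 at chr1:24615275-24615349 and that of Gm13341, a more diverged copy, at chr2:22587672-22587746, both on the minus strand. The mt-Nd3 stretch lies at chrM:9459-9533 and that of Gm28438 at chr1:24613045-24613119 on the minus strand.
mt-Co2: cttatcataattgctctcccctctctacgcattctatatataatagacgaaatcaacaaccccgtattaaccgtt
Gm28661: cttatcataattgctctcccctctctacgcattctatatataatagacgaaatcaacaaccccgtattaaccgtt
Gm13341: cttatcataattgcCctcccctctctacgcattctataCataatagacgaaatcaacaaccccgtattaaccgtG
mt-Nd3: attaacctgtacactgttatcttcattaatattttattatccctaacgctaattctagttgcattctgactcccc
Gm28438: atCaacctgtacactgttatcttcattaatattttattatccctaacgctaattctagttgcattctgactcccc
Gm28661 differed from mt-Co2 at 0 of these 75 bases, Gm13341 at 3, and Gm28438 from mt-Nd3 at 1.

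Cut into every possible 75-base window, mt-Co3 had 99.9% of its windows in another transcript of the GENCODE M21 set, mt-Co2 and mt-Atp6 99.5%, mt-Nd4l 98.7% and mt-Nd3 97.8%. The share was 61.5% for mt-Nd4 and 39.8% for mt-Co1, which are copied in part, 5.71% for mt-Nd2 and 1.66% for mt-Nd5. It was 0 for mt-Nd1, mt-Nd6, mt-Cytb, mt-Rnr1 and mt-Rnr2. Every mRNA gene with a share of 97.8% or more was thus among the uncounted. Every mRNA gene with a share of 61.5% or less was counted, except mt-Atp8 with a share of 0. The stretch on chromosome 1 where a counterpart of mt-Atp8 would lie is for the most part outside the transcripts searched, with no full window inside them. Its sequence was not compared. The identical or near-identical copies did not hold the counts either. Gm28661, Gm10925, Gm28437, Gm28438, Gm10222 and Gm28439 each had at most 4 counts over the 8 libraries. Gm13341, with 95.9% identity to mt-Co2, had 256, 367, 125 and 341 counts in FFA2 fl/fl and 275, 157, 182 and 196 in Adipoq-F2-KO. Gm13340, with 97.6% identity to mt-Co1, had 494 counts in all, and Gm43743 (part of mt-Atp6) and Gm11407 (part of mt-Nd5) had 61 and 57. How reads with several matches were counted is not given in the sources used here, and its part in these zeros was not tested.

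**Figure D1:**
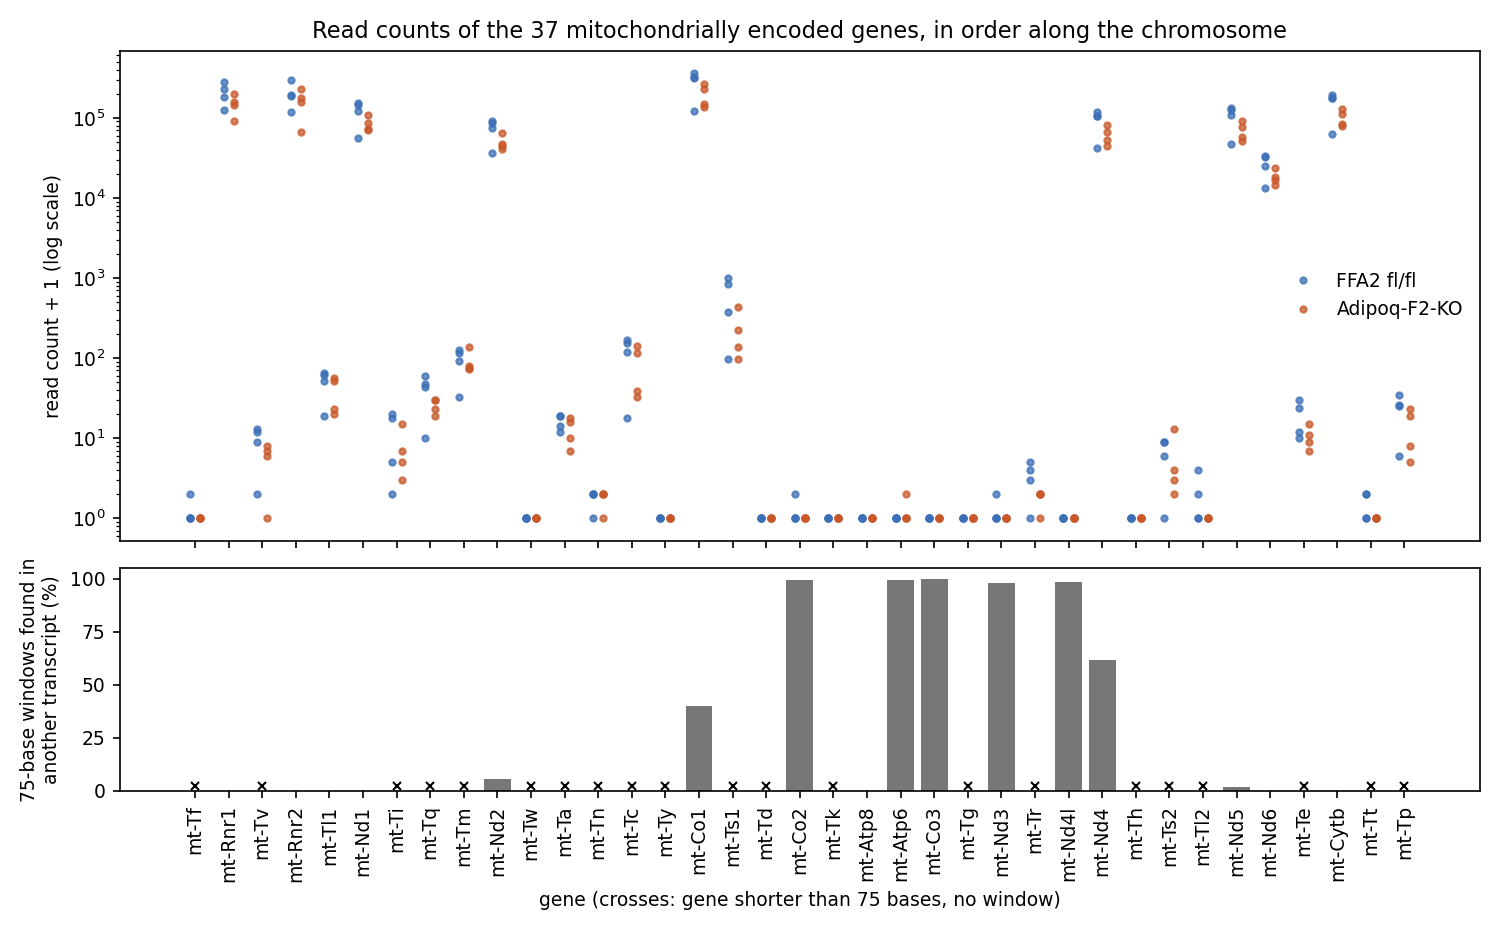
Upper panel: read count plus 1 on a log axis for each of the 37 genes in order along the mitochondrial chromosome, 1 point per library (blue FFA2 fl/fl, orange Adipoq-F2-KO). Lower panel: percent of 75-base windows of each gene found in another annotated transcript. The 6 mRNA genes at 0 or 1 count lie together, and 5 of them have 97.8 to 99.9% of windows in a copy.

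Levels could therefore be set side by side only for the 7 counted mRNAs and the 2 rRNAs, and only per length. Length does not correct for unequal capture by the poly(A) selection, so the order is one of counts and not of RNA amounts in the tissue. As normalized counts per kilobase, averaged over the 8 libraries, mt-Rnr1 (the rRNA of the small ribosomal subunit) came first at 196835, followed by mt-Co1 (the catalytic subunit of complex IV) at 144010 and mt-Rnr2 (the rRNA of the large subunit) at 131804. mt-Cytb, of complex III, stood at 105238 and mt-Nd1 at 103978. mt-Nd2, mt-Nd4, mt-Nd5 and mt-Nd6, all of complex I, stood at 57909, 53485, 45151 and 42205. This order depended on how the copied parts were treated. Another scale divided all counts of a gene by its windows found in no other transcript. It takes for granted that no read from a copied window was counted, which was not tested. Per 1000 windows that occur in no other transcript, mt-Co1 stood at 251407, mt-Rnr1 at 213368, mt-Nd4 at 146817 and mt-Rnr2 at 138272, with mt-Nd1 at 112692, mt-Cytb at 112516, mt-Nd2 at 66127, mt-Nd6 at 49223 and mt-Nd5 at 47853. On this scale mt-Co1 came before mt-Rnr1, and mt-Nd4 moved from below mt-Nd2 to above mt-Rnr2. The spread between libraries was large against some of these steps: mt-Cytb varied between 69194 and 157411 normalized counts and mt-Nd1 between 52671 and 138949.

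The 37 genes together took 6.48, 6.93, 11.6 and 10.1% of the counts in FFA2 fl/fl 1 to 4 and 7.81, 4.37, 12.2 and 12.1% in Adipoq-F2-KO 1 to 4. The group means were 8.77% ± 2.47 (SD, n = 4) in FFA2 fl/fl and 9.14% ± 3.79 (SD, n = 4) in Adipoq-F2-KO, a difference of 0.37 points that was smaller than the spread within either group. Its sign rested on single libraries. It was -0.39 points without FFA2 fl/fl 1, -0.24 without FFA2 fl/fl 2, -0.66 without Adipoq-F2-KO 3 and -0.63 without Adipoq-F2-KO 4, and it was 1.96 points without Adipoq-F2-KO 2. The groups overlapped, and Adipoq-F2-KO held both the lowest library (2) and the highest (3). Counting error was small beside this, since the widest 95% Wilson interval of a library spanned 0.052 points.

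The share lay between 11.6 and 12.2% in the 3 libraries under 10000000 counts and between 4.37 and 10.1% in the other 5. Among the 5 deeper libraries, FFA2 fl/fl averaged 7.82% ± 1.95 (SD, n = 3) and Adipoq-F2-KO 6.09% ± 2.44 (SD, n = 2). Among the shallow libraries, the single FFA2 fl/fl library had 11.6% and the Adipoq-F2-KO libraries averaged 12.2%. The direction of the genotype difference was thus not the same in the deeper libraries as over all 8, and depth, tissue content and mitochondrial share cannot be told apart in the shallow ones, which also held the highest Fabp4 counts.

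The rRNAs carried more of this variation than the mRNAs. The mRNAs took 4.89, 5.00, 6.30 and 6.34% of the counts in FFA2 fl/fl and 5.02, 3.49, 7.09 and 7.28% in Adipoq-F2-KO, a 2.09-fold range. The rRNAs took 1.58, 1.92, 5.30 and 3.71% in FFA2 fl/fl and 2.79, 0.876, 5.14 and 4.86% in Adipoq-F2-KO, a 6.05-fold range. The 4 libraries highest in mRNA (FFA2 fl/fl 3 and 4, Adipoq-F2-KO 3 and 4) were also the 4 highest in rRNA, and FFA2 fl/fl 3 had the highest rRNA share while Adipoq-F2-KO 4 had the highest mRNA share. The rRNAs amounted to 20.1% of the mitochondrial counts in Adipoq-F2-KO 2 and to 45.7% in FFA2 fl/fl 3.

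**Figure D2:**
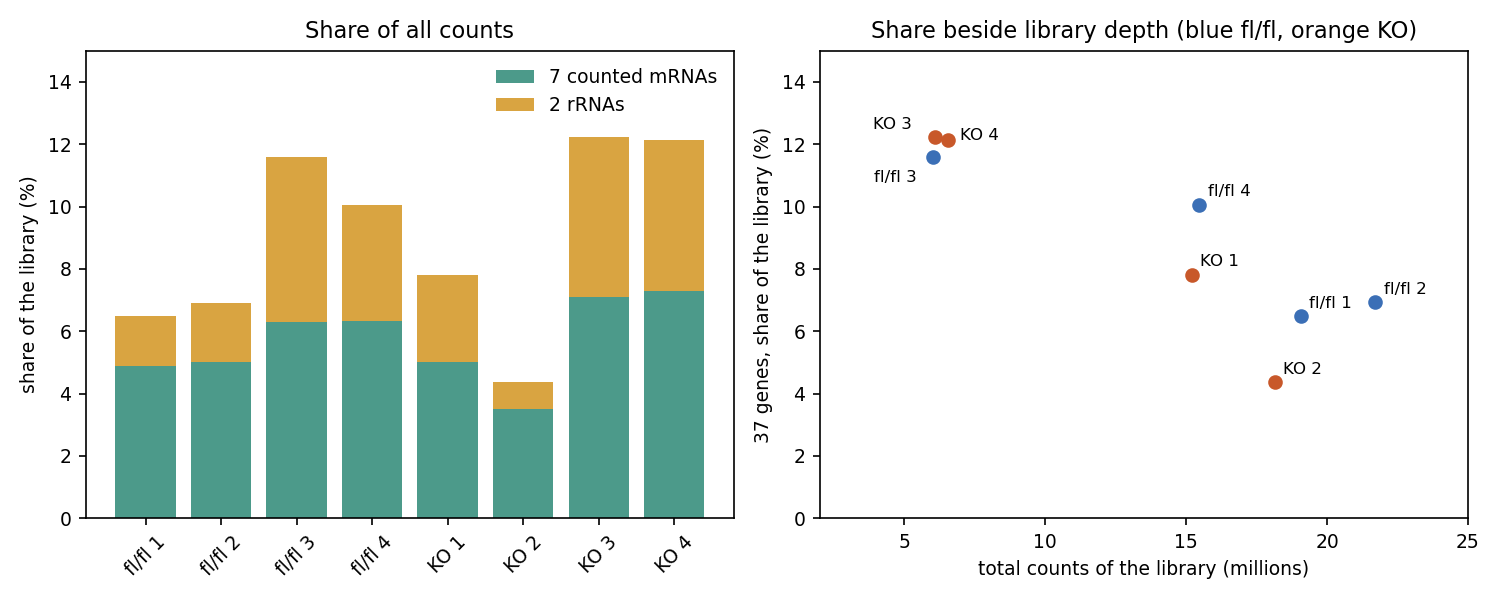
Left: percent of all counts of each library taken by the mRNAs (green) and rRNAs (yellow), stacked. Right: percent of counts taken by all 37 genes against the total counts of the library. The 3 libraries with the fewest counts sit between 11.6 and 12.2%, and neither genotype is separate from the other.

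Among themselves the mRNAs kept a stable balance. mt-Co1 made up 34.7, 33.4, 32.1 and 31.5% of the mitochondrial mRNA counts in FFA2 fl/fl and 34.5, 36.3, 31.1 and 31.3% in Adipoq-F2-KO. Its mean was 32.9% ± 1.39 (SD, n = 4) against 33.3% ± 2.54 (SD, n = 4). mt-Nd4 varied least, between 10.3 and 11.1%. mt-Nd6, the only mRNA on the opposite strand, varied most in proportion, between 2.69 and 3.52%, which is 1.31-fold. For all 7 mRNAs the groups overlapped in this share.

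The other shares were 17.9% ± 0.981 in FFA2 fl/fl and 17.6% ± 0.375 in Adipoq-F2-KO for mt-Cytb, and 14.1% ± 0.759 and 14.7% ± 1.15 for mt-Nd1 (SD, n = 4 each). mt-Nd5 took 12.3% ± 0.552 and 11.9% ± 0.0843, and mt-Nd2 8.69% ± 0.657 and 8.64% ± 0.994. Each difference was smaller than the larger of the group SDs. The ratio of mt-Nd6 to mt-Nd5, neighbours on opposite strands whose ends overlap, ran from 0.233 to 0.295. The strand setting of the counting was not given, so reads of the opposite strand cannot be told apart.

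The ratio of the rRNAs varied more over the libraries than the ratio of any pair of mRNAs. mt-Rnr2 had 0.653, 0.829, 1.51 and 1.04 counts per count of mt-Rnr1 in FFA2 fl/fl and 1.17, 0.729, 1.01 and 1.23 in Adipoq-F2-KO, a 2.32-fold range. Over the 21 pairs of mRNAs the same range was 1.13-fold to 1.49-fold. These rRNA genes are adjacent, with mt-Tv between them, and are read from the same strand. The SD of the log2 normalized count over the 8 libraries was 1.17 for mt-Rnr2, 0.83 for mt-Rnr1 and 0.32 for mt-Co1, beside a median of 0.28 over all 15986 genes tested and of 0.18 over the 124 genes with a mean of at least 10000 normalized counts. The log2 normalized counts of the 7 mRNAs followed each other over the libraries with Pearson's r from 0.96 to 0.995 in 21 pairs. The same r was 0.97 between mt-Rnr1 and mt-Rnr2 and ran from 0.89 to 0.99 between an rRNA and an mRNA. These values share libraries and scaling and are given as a description (n = 8 libraries).

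**Figure D3:**
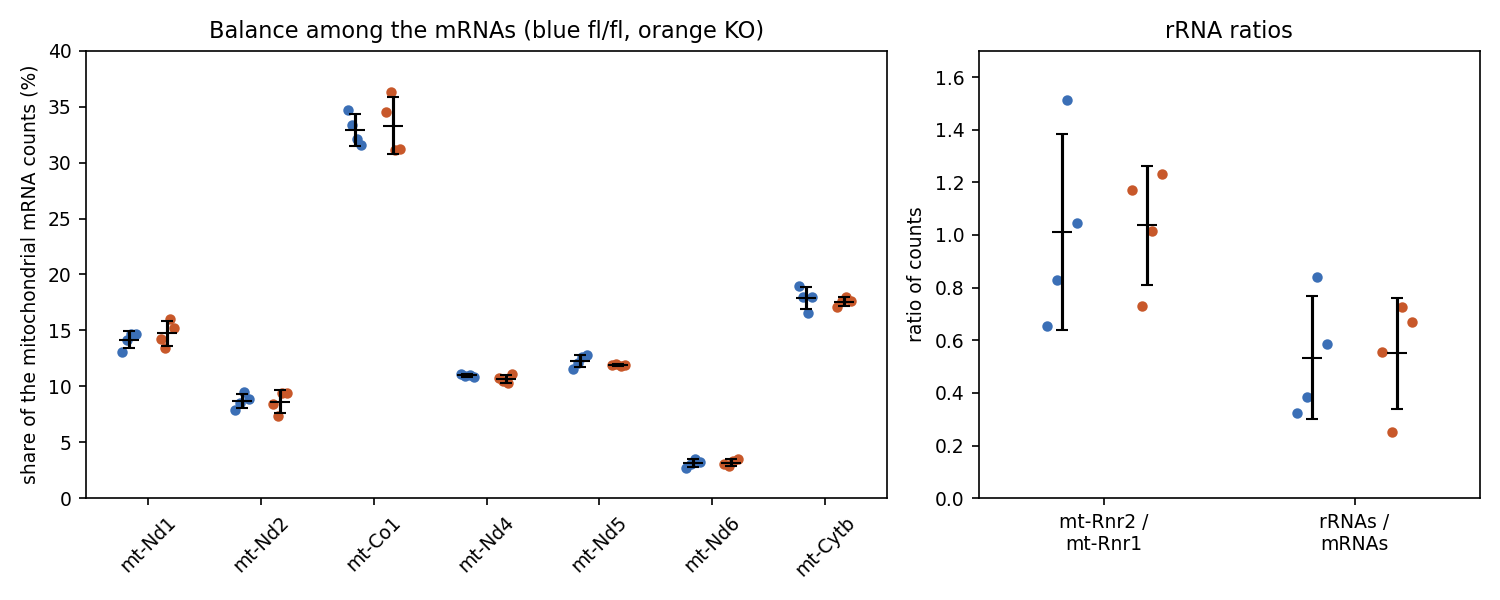
Left: share of each counted mRNA in the mitochondrial mRNA counts, 1 point per library, with mean and SD in black (blue FFA2 fl/fl, orange Adipoq-F2-KO, n = 4 each). Right: ratio of mt-Rnr2 to mt-Rnr1 counts and of rRNA to mRNA counts. The ratio of mt-Rnr2 to mt-Rnr1 runs from 0.653 to 1.51 over the libraries, and the groups overlap in every column.

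The genotypes were compared gene by gene with DESeq2 over 15986 genes, of which 6, or 0.0375%, had an adjusted p below 0.05. Of the 37 members, 17 passed the filter on low counts (7 mRNAs, 2 rRNAs and 8 tRNAs) and 20 were not tested. None of the 17 had an adjusted p below 0.05, and edgeR also gave 0. With DESeq2, 2 had an unadjusted p below 0.05, 1 higher and 1 lower in Adipoq-F2-KO, beside 3.03% of all genes tested in either direction, 1.65% higher and 1.38% lower. With edgeR it was 1, and the edgeR share over all genes is not given here. The normalized counts of the groups overlapped for all 17 members, beside 2.12% of genes tested whose groups did not overlap. The median log2 fold change was 0.02 over the members and -0.01 over all genes tested.

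For the mRNAs the log2 fold changes of Adipoq-F2-KO over FFA2 fl/fl lay between -0.02 (mt-Nd5) and 0.11 (mt-Nd1), with 95% intervals that reached from -0.53 to 0.66 at their widest. mt-Co1 had 196086, 190775, 253999 and 239517 normalized counts in FFA2 fl/fl and 207994, 142385, 269413 and 279791 in Adipoq-F2-KO. Both the lowest and the highest values were in Adipoq-F2-KO. Its log2 fold change was 0.03 (SE 0.21, DESeq2 adjusted p = 0.9998), with an interval of -0.37 to 0.43.

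mt-Cytb had 107160, 102665, 131032 and 136809 normalized counts in FFA2 fl/fl and 102978, 69194, 155887 and 157411 in Adipoq-F2-KO, a log2 fold change of 0.02 (SE 0.24, DESeq2 adjusted p = 0.9998). mt-Nd1 had 74023, 80601, 116152 and 111680 in FFA2 fl/fl and 85717, 52671, 138949 and 136264 in Adipoq-F2-KO, a log2 fold change of 0.11 (SE 0.28, DESeq2 adjusted p = 0.9998). mt-Nd6 had 15243, 17561, 27819 and 24736 in FFA2 fl/fl and 18403, 11155, 28862 and 31455 in Adipoq-F2-KO, a log2 fold change of 0.07 (SE 0.30, DESeq2 adjusted p = 0.9998). In all of these, Adipoq-F2-KO 2 was the lowest library and Adipoq-F2-KO 3 or 4 the highest. The sign of these small differences turned in the 5 deeper libraries, where the log2 fold change was -0.43 for mt-Cytb, -0.36 for mt-Nd1, -0.38 for mt-Nd6 and -0.26 for mt-Co1, with DESeq2 adjusted p of 0.71 to 0.96. There mt-Cytb had a DESeq2 unadjusted p of 0.0452.

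The intervals of the rRNAs were wider than those of the mRNAs. mt-Rnr1 had 110384, 120401, 264830 and 217569 normalized counts in FFA2 fl/fl and 154261, 57067, 311613 and 267693 in Adipoq-F2-KO, a log2 fold change of 0.15 (SE 0.49, DESeq2 adjusted p = 0.9998). mt-Rnr2 had 72104, 99866, 400914 and 227080 in FFA2 fl/fl and 180574, 41583, 316030 and 329965 in Adipoq-F2-KO, a log2 fold change of 0.12 (SE 0.65, DESeq2 adjusted p = 0.9998). The intervals, -0.81 to 1.11 and -1.15 to 1.39, take in a doubling for both genes. In the 5 deeper libraries the log2 fold change was -0.50 for mt-Rnr1 and -0.26 for mt-Rnr2. On leaving out 1 library it ran from -0.16 (without Adipoq-F2-KO 3) to 0.45 (without Adipoq-F2-KO 2) for mt-Rnr1 and from -0.16 (without FFA2 fl/fl 1) to 0.71 (without FFA2 fl/fl 3) for mt-Rnr2.

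**Figure D4:**
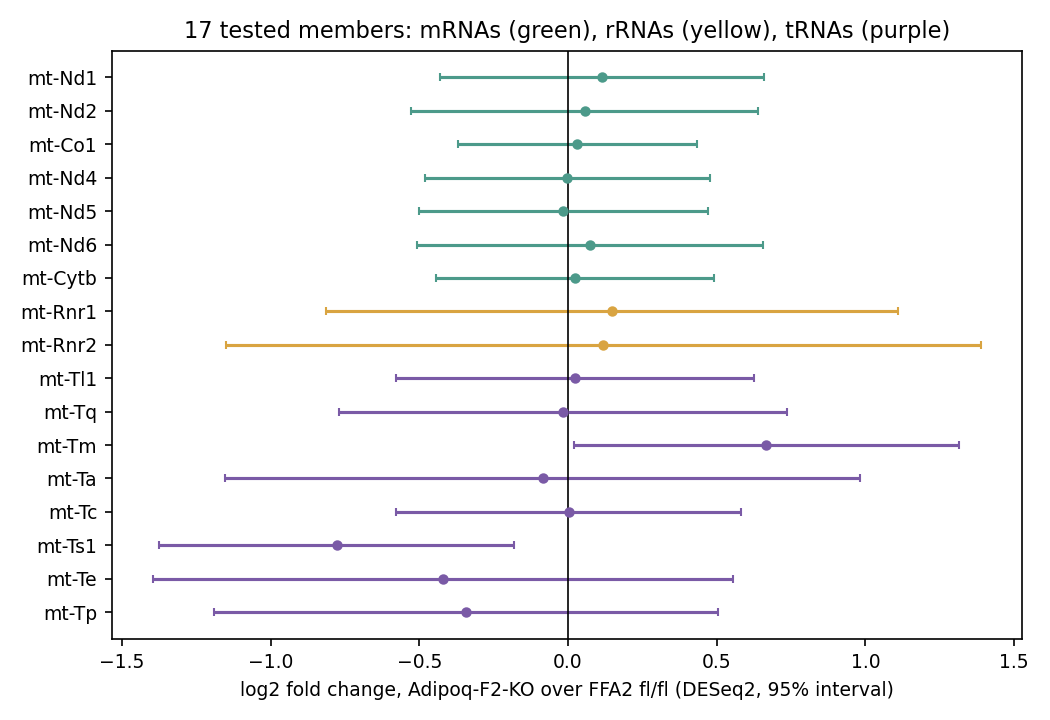
Log2 fold change of Adipoq-F2-KO over FFA2 fl/fl for the 17 tested members, with DESeq2 95% intervals (green mRNAs, yellow rRNAs, purple tRNAs). The intervals of mt-Tm (0.02 to 1.32) and mt-Ts1 (-1.38 to -0.18) leave out 0, and neither gene passed the adjusted threshold.

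The 22 tRNA genes together took between 0.00343 and 0.00784% of the counts. They are 59 (mt-Ts2) to 75 bases long (mt-Tl1). Over the 8 libraries, 8 tRNA genes had more than 3 counts in every library, 10 never did, and 6 had 0 throughout. mt-Tl1, which carries leucine and lies between mt-Rnr2 and mt-Nd1, had 18 to 65 counts. The 8 tRNA genes on the minus strand of the annotation held 4583 counts and the 14 on the plus strand, where nearly all mRNAs lie, 1239. Most of the former came from mt-Ts1 with 3186 counts. Of the 5 tRNA genes inside the stretch copied on chromosome 1, mt-Td, mt-Tk and mt-Tg had 0 counts, mt-Tr had 12 and mt-Ts1 had the most counts of any tRNA gene. Outside it, mt-Tw, mt-Ty and mt-Th had 0 as well. A tRNA gene is shorter than a full 75-base read, apart from mt-Tl1, so such a read reaches beyond the gene unless it was trimmed. Positions and lengths of the reads were not looked at.

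Over all 8 libraries, the only members with a DESeq2 unadjusted p below 0.05 were the tRNA genes mt-Ts1 and mt-Tm. Read positions were not looked at and the strand setting was not given. Reads of neighbouring or uncut transcripts therefore cannot be told apart from reads of these tRNAs. The sequences of mt-Ts1 and mt-Tm, from the GENCODE M21 transcripts on GRCm38, are shown with the anticodon in capitals. mt-Ts1 (a serine tRNA) lies at chrM:6870-6938 on the minus strand, overlaps the end of mt-Co1 on the other strand by 3 bases, and mt-Tm (the methionine tRNA) lies at chrM:3845-3913 on the plus strand, directly before mt-Nd2.
mt-Ts1: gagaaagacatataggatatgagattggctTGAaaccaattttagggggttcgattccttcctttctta
mt-Tm: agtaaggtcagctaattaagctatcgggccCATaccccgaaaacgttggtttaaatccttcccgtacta

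mt-Ts1 had 599, 442, 201 and 289 normalized counts in FFA2 fl/fl and 174, 269, 194 and 259 in Adipoq-F2-KO. FFA2 fl/fl 1 and 2 were the highest libraries, and the other 2 controls lay within the range of Adipoq-F2-KO or just above it. The mean was 383 ± 175 (SD, n = 4) in FFA2 fl/fl and 224 ± 47.0 in Adipoq-F2-KO, a log2 fold change of -0.78 (SE 0.30, DESeq2 unadjusted p = 0.0107, adjusted p = 0.9998). Without FFA2 fl/fl 1 the log2 fold change was -0.48 (DESeq2 unadjusted p = 0.0846). Without FFA2 fl/fl 3, the library rich in smooth muscle markers, it was -0.98 (DESeq2 unadjusted p = 8.4e-05, adjusted p = 0.0153). In that fit 109 genes passed the adjusted threshold, against 6 over all 8 libraries. Per 1000 counts of mt-Co1, mt-Ts1 had 3.05, 2.32, 0.790 and 1.21 counts in FFA2 fl/fl and 0.839, 1.89, 0.721 and 0.927 in Adipoq-F2-KO. The 3 libraries under 10000000 counts lay between 0.721 and 0.927, with the groups overlapping again.

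mt-Tm had 69.1, 66.4, 66.9 and 71.2 normalized counts in FFA2 fl/fl and 107, 46.5, 142 and 147 in Adipoq-F2-KO. The controls were within 5 counts of each other, and 3 of the 4 Adipoq-F2-KO libraries lay above them and 1 below. The log2 fold change was 0.67 (SE 0.33, DESeq2 unadjusted p = 0.0436, adjusted p = 0.9998). In the 5 deeper libraries it was 0.15 (DESeq2 unadjusted p = 0.695), and without Adipoq-F2-KO 2 it was 0.92 (DESeq2 unadjusted p = 2.8e-05, adjusted p = 0.06). Leaving out any other single library gave a DESeq2 unadjusted p of 0.0543 to 0.153, edgeR gave an unadjusted p of 0.0625, and DESeq2 with a replicate block gave 0.109. Set against its neighbour, mt-Tm had 1.54, 1.37, 0.890 and 1.06 counts per 1000 counts of mt-Nd2 in FFA2 fl/fl and 2.12, 1.61, 1.75 and 1.74 in Adipoq-F2-KO. By this ratio the groups did not overlap. The nearest libraries, FFA2 fl/fl 1 at 1.54 and Adipoq-F2-KO 2 at 1.61, rested on only 114 and 75 counts of mt-Tm. How often other pairs of genes separate in this way is not given here. The ratio was chosen once mt-Tm was known to be among the lowest p-values, so it was not tested.

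mt-Tc, the cysteine tRNA and the second by counts, had 101, 81.2, 35.5 and 91.3 normalized counts in FFA2 fl/fl and 89.99, 87.4, 76.1 and 60.2 in Adipoq-F2-KO. The groups overlapped, and the lowest value was in FFA2 fl/fl 3. The other tested tRNAs had log2 fold changes between -0.42 (mt-Te, SE 0.50) and 0.02 (mt-Tl1, SE 0.31), with mt-Tp at -0.34 (SE 0.43), mt-Ta at -0.08 (SE 0.54) and mt-Tq at -0.02 (SE 0.38).

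**Figure D5:**
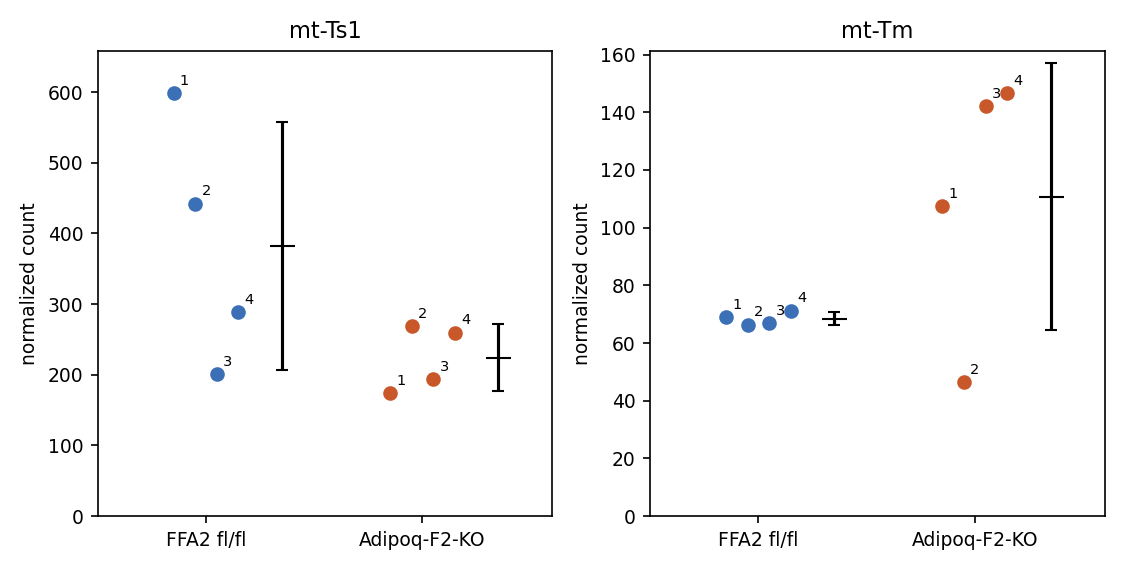
Normalized counts of mt-Ts1 (left) and mt-Tm (right) per library, numbered by replicate (blue FFA2 fl/fl, orange Adipoq-F2-KO), with mean and SD in black (n = 4 each). For mt-Ts1 the 2 highest libraries are FFA2 fl/fl 1 and 2, and for mt-Tm the controls lie between 66.4 and 71.2 while Adipoq-F2-KO ranges from 46.5 to 147.

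Nuclear genes supply the rest of the respiratory chain and the machinery that copies, cuts and translates mitochondrial RNA. Of the 77 nuclear subunits listed for complexes I to V, all tested, 33 had a log2 fold change above 0 and 44 below, and 0 had a DESeq2 unadjusted p below 0.05, with a median of -0.01 beside -0.01 over all genes tested. The median was -0.04 for complex IV (2 of 12 genes above 0 and 10 below), -0.02 for complex III (4 above, 5 below), -0.01 for complex I (17 above, 19 below) and for complex V (7 above, 9 below), and 0.02 for complex II (3 above, 1 below), which has no mitochondrially encoded subunit. Of 77 tested genes of the mitochondrial ribosome, 39 lay above 0 and 38 below (median 0.00). The medians were 0.04 for mtDNA transcription and replication (9 above, 8 below), 0.01 for RNA processing and stability (12 above, 9 below) and -0.06 for chaperones and proteases (4 above, 11 below). Of the 207 genes tested from the 9 lists, 0 had a DESeq2 unadjusted p below 0.05, beside 3.03% of all genes with DESeq2. With edgeR, whose share over all genes is not given here, there was 1. It was Tfb1m, which modifies the rRNA of the small subunit (edgeR unadjusted p = 0.0449, DESeq2 log2 fold change -0.46, SE 0.31).

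Tfam, which packages mitochondrial DNA and starts its transcription, had 192 ± 13.1 normalized counts in FFA2 fl/fl and 208 ± 32.7 in Adipoq-F2-KO (SD, n = 4), a log2 fold change of 0.11 (SE 0.15). Polrmt, the mitochondrial RNA polymerase, had 210 ± 27.7 and 203 ± 22.8, a log2 fold change of -0.07 (SE 0.16). Lrpprc, which stabilises mitochondrial mRNAs, had 559 ± 80.1 and 562 ± 51.2, a log2 fold change of 0.01 (SE 0.14). None of the 3 had a DESeq2 adjusted p below 0.05.

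The nuclear subunits took 0.890, 0.866, 0.710 and 0.870% of the counts in FFA2 fl/fl and 0.831, 0.982, 0.825 and 0.691% in Adipoq-F2-KO, a 1.42-fold range. The mitochondrial mRNAs had 3.55 times as many counts as these nuclear subunits in Adipoq-F2-KO 2 and 10.5 times as many in Adipoq-F2-KO 4, with FFA2 fl/fl between 5.50 and 8.87. The library lowest in mitochondrial mRNA, Adipoq-F2-KO 2, was the highest in nuclear subunits, and Adipoq-F2-KO 4, the highest in mitochondrial mRNA, was the lowest in nuclear subunits.

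The non-member genes whose log2 normalized counts followed the summed mRNAs most closely over the 8 libraries were C2cd2 (Pearson's r = 0.99), the small nucleolar RNA gene Gm26397 (r = 0.98) and ENSMUSG00002075795, which has no symbol in the annotation used (r = 0.98). These were picked as the highest of all tested genes and are given as a description. Gm26397 had 325 normalized counts in Adipoq-F2-KO 2 and 977 in Adipoq-F2-KO 3, the lowest and highest libraries.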

How the data were processed

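Jejunal mucosa RNA from 4 FFA2 fl/fl and 4 Adipoq-F2-KO mice was sequenced. The authors trimmed reads with Trimmomatic, aligned them with STAR and used featureCounts to count them by gene. The authors deposited these raw counts, 1 set for each library, without normalization or pooling. Per the submitters' processing notes the build was GRCm38 (mm10). Software versions, the annotation release, the strand setting and the handling of reads with several matches are not given in the sources used here. Groups and replicate numbers came from the sample titles, and the deposited files carry other numbers, so a shared number was not taken as a pair. Mice were littermates housed together, but which mice shared a litter or cage is not given, and p-values measure the spread between these samples.

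Of 56980 identifiers, 52125 matched a symbol in GENCODE M21 (GRCm38) or the gene name table, and all 37 members matched. DESeq2 1.42.0 in R 4.3.3 was the main test (two-sided Wald test, genotype as the only term, Benjamini-Hochberg adjustment), run on 15986 genes that reached 10 counts in 4 or more libraries. An adjusted p was not given for 8 of them. It was checked on simulated counts with known changes. Counts were normalized by dividing through the size factors of DESeq2, and intervals are 95% (estimate ± normal quantile × SE). Shares were computed in Python 3.11.15 from raw counts, with Wilson intervals. Intervals and the floor of 3 counts cover counting error only, since reads carried no molecular identifiers. Members, lists and the rule for naming genes were chosen with earlier results of these data known. The named members were the 3 mRNAs and 2 tRNAs with most counts, both rRNAs, mt-Nd6, those without counts and those with an unadjusted p below 0.05; from each nuclear list up to 3 genes with an unadjusted p below 0.05, which none had, and Tfam, Polrmt and Lrpprc; and the 3 genes most like the mRNA sum.

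A search of the whole genome for copies had been planned. It was made on the GENCODE M21 transcripts instead, with exact windows of 75 bases (50 as an alternative) on either strand and blastn 2.17.0+ at 80% identity or more over at least 75 bases, so copies outside annotated transcripts were not searched. Alternatives were edgeR 4.0.16, TMM or total-count scaling, size factors without the members, no filter, a replicate block, the 5 libraries with at least 10000000 counts, other denominators, added nuclear copies, and leaving out each library.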

Additional observations from a re-analysis of the deposited data

How the results depend on the processing

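The count of genes with a DESeq2 adjusted p below 0.05 was 6. It became 2 with edgeR, 3 with no filter on low counts, 78 in the 5 deep libraries, and 1 to 109 on leaving out 1 library, the highest without FFA2 fl/fl 3. The count of members with an unadjusted p below 0.05 was 2 and became 1 with edgeR and 0 to 2 on leaving out 1 library (0 without FFA2 fl/fl 1). mt-Ts1 kept its direction in all 15 alternatives (log2 fold change -0.998 to -0.48, unadjusted p below 0.05 in 14, adjusted p 0.0153 to 0.99999) and passed the adjusted threshold in 1. mt-Tm kept its direction in all 15 (0.15 to 0.92, unadjusted p below 0.05 in 5, adjusted p 0.06 to 0.99999).

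The replicate numbers did not pair the libraries (correlations of 0.54, 0.29, 0.01 and -0.42 for numbers 1 to 4), and 2 of the 4 controls correlated best with the Adipoq-F2-KO library of their own number. With a replicate block, 11 genes had an adjusted p below 0.05, none of them a member, and 1 member, mt-Ts1, had an unadjusted p below 0.05 (0.0220, adjusted p = 0.99999). The log2 fold change turned to -0.0064 for mt-Co1, -0.042 for mt-Cytb and -0.0050 for mt-Rnr1 under the block.

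Values near 0 turned sign elsewhere. In the 5 deep libraries they were -0.26 for mt-Co1, -0.43 for mt-Cytb, -0.36 for mt-Nd1, -0.50 for mt-Rnr1, -0.26 for mt-Rnr2, -0.38 for mt-Nd6 and -0.037 for mt-Tc. mt-Tc, at 0.0019, was also -0.0046 with edgeR, -0.0077 with TMM factors, -0.0090 with total-count factors, and -0.0015 with no filter. On leaving out 1 library the log2 fold change ran from -0.093 to 0.20 for mt-Co1, -0.13 to 0.22 for mt-Cytb, -0.063 to 0.33 for mt-Nd1, -0.16 to 0.45 for mt-Rnr1, -0.16 to 0.71 for mt-Rnr2, -0.13 to 0.30 for mt-Nd6 and -0.18 to 0.15 for mt-Tc. The cause was not tested.

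The difference in library share (0.37 points) was 0.56 against nuclear protein-coding counts, 0.09 for the mRNAs alone, 0.37 with nuclear copies added, and -0.66 to 1.96 on leaving out 1 library, all within the spread between libraries. With 50-base windows the share found in another transcript was 100% for mt-Co2, 51.1% for mt-Co1, 8.19% for mt-Nd2, 7.61% for mt-Nd5 and 1.04% for mt-Rnr2. Of 344 alternative values, 281 kept both direction and side of the threshold or moved within the spread. Of the 22 tRNA genes, 14 did not pass the filter on low counts and were not tested with it, 10 of them never above 3 counts.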
